A study of Mus musculus with 4 samples.

Results

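The genes described are 10 Wnt ligand genes, Wnt2, Wnt2b, Wnt4, Wnt5a, Wnt5b, Wnt7a, Wnt7b, Wnt10a, Wnt11 and Wnt16. They were taken by name from count tables of 33697 features, which list 19 Wnt genes. Their RNA was measured in 4 single-cell libraries of mouse trachea in counts of UMIs (unique molecular identifiers, 1 per tagged RNA molecule) per 1000000 UMIs of a group of cells (CPM). The libraries came from the dorsal and the ventral trachea of control and of knockout mice, 1 library for each combination. Every mouse carried P63-CreER, a tamoxifen-dependent Cre recombinase made in basal cells that express P63. Every mouse also carried Ki67-lsl-Dre, a Dre recombinase at the Ki67 gene that Cre releases, and Rosa26-rsr-GFP, a reporter that Dre releases. Controls were Ctnnb1-fl/+ and knockouts Ctnnb1-fl/fl, so a floxed allele of the β-catenin gene was present in both. All mice had tamoxifen, and tracheae were taken 10 days later, split into regions and digested with papain. The Cre is labelled for basal cells, so fibroblasts, endothelial cells and cartilage of the knockouts were not its targets. The sources used here do not state how many mice, of what age and sex, stood behind each library. With 1 library per group there is no spread between replicates, no test was run, and every interval below is a 95% interval that covers counting error only.

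Wnt ligands are secreted, lipid-modified proteins that act over short distances. The acyltransferase Porcn attaches the lipid and the carrier Wls takes the ligand to the cell surface. Ligands bind Frizzled receptors with the co-receptors Lrp5 and Lrp6, which stabilises β-catenin and lets it act with TCF/LEF factors on target genes. Wnt5a and Wnt11 are best known for signalling without β-catenin, through receptors such as Ror2 and Ryk. In the trachea, Wnt signals are known from the patterning of cartilage and smooth muscle and from the upkeep of the epithelium.

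Promoter sequence is shown for the 3 ligands on which the results turn, since the study deletes the partner of TCF/LEF factors. Each line gives the 250 bases before a RefSeq start site on the mouse assembly GRCm38.p6, on the gene's strand, and capitals mark a match to the TCF/LEF core CTTTGA on either strand (TCAAAG on the other). Wnt4, at chr4:137277385-137277634 on the plus strand, is the ligand with most UMIs in basal cells. Wnt11, at chr7:98834862-98835111 on the plus strand, has most UMIs in fibroblasts. Wnt16, at chr6:22287977-22288226 on the plus strand, is the ligand with the widest differences between fibroblasts of the libraries.
Wnt4: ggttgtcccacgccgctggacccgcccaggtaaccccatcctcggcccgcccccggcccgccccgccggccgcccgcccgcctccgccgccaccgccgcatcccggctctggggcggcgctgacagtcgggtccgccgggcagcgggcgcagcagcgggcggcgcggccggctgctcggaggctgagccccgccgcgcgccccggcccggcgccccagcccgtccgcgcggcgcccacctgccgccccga
Wnt11: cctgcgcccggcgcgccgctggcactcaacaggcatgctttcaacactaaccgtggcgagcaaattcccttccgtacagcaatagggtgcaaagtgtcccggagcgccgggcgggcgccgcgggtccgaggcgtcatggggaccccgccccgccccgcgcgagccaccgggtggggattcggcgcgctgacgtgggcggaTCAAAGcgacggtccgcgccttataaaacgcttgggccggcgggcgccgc
Wnt16: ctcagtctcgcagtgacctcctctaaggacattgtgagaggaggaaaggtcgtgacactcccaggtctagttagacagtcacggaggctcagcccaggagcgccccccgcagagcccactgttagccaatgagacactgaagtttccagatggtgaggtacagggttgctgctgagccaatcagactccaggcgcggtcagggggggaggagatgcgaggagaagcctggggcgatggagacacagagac
The core was in the first of the 2 Wnt11 windows and in 1 of the 3 Wnt5b windows, and in none of the other windows of the members. It was in 13.8% of 32851 promoter windows of the same length. The forkhead letters GTAAACA (3.17% of windows) and the RFX half-site GTTGCC (10.4%) were in no window of a member, on either strand. Of the 10 members, 7 had an entry, with 10 windows in all. A match is a description of letters and not of binding.

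The libraries are always given as control dorsal, then control ventral, then knockout dorsal, then knockout ventral. They held 13962, 11150, 6744 and 7668 barcodes, of which 12544, 9364, 6032 and 6545 were kept as cells. Their totals were between 144851737 and 286711618 UMIs. Pairs of libraries shared 21 to 57 barcodes. Cells were gated by 1 marker each: basal by Krt5 with Trp63, secretory by Scgb1a1, ciliated by Tmem212, fibroblast by Col1a2, chondrocyte by Acan, endothelial by Pecam1 and macrophage by C1qa. Other defining markers were highest in their own gate in every library, except Dst of basal cells in the control ventral library (higher in chondrocytes) and Cyp2f2 of secretory cells in the knockout ventral library (higher in basal cells). Between 33.0% and 53.5% of cells passed no gate, and 14541 of 34485 cells in all. Ctnnb1 itself was at 281, 297, 211 and 232 CPM in the basal gate and at 125, 156, 100.0 and 130 in the fibroblast gate, so it was lower in both knockout libraries in both gates. The reads lie near the 5′ end and the deleted exons are not stated in these sources, so these levels do not show whether the deletion took place. Ribosomal protein genes took more of the UMIs in the knockout dorsal library, 18.7% of the basal gate against 14.3% to 15.9% elsewhere, and 13.3% of the fibroblast gate against 9.85% to 10.5%. The part this had in the ratios of that library was not tested beyond scaling without those genes and without mitochondrial genes, which kept 40 of 40 ligand ratios called in the 7 gates and the Col23a1 part of fibroblasts. UMIs were not divided by gene length, so levels are compared within a gene.

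The ligands fell into 3 sets by the gates that held their UMIs. Wnt4, Wnt10a and Wnt7b were found mainly in epithelial gates, Wnt16, Wnt2b and Wnt2 mainly outside them, and Wnt5b, Wnt11 and Wnt5a in both. Over all kept cells Wnt4 gave 71296 UMIs, Wnt7b 14835, Wnt11 14773, Wnt5b 11486, Wnt5a 4819, Wnt16 4620, Wnt10a 2797, Wnt2b 710 and Wnt2 624. Wnt7a gave 13 UMIs, between 1 and 5 per library, and is not described further. Cells outside every gate held 20.8% to 43.6% of the UMIs of the other 9 members. Of the Wnt genes that are no members, Wnt9a gave 9145 UMIs and each of the other 8 at most 462.

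**Figure D1:**
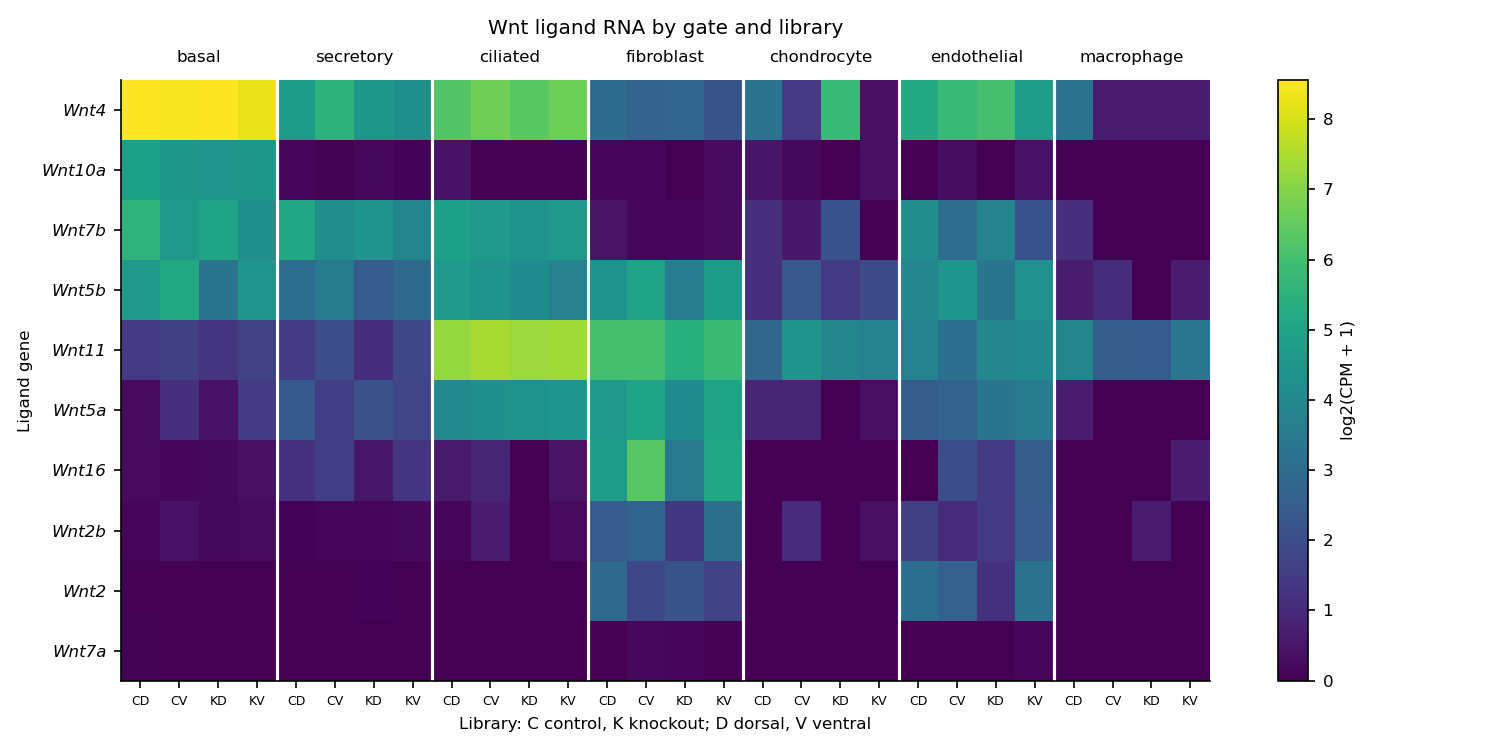
Level of each ligand (rows) in 7 marker gates and 4 libraries (columns), as log2 of CPM plus 1. Wnt4 is brightest in the 4 basal columns, Wnt11 in the ciliated columns and Wnt16 in the control ventral fibroblast column.

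**Figure D2:**
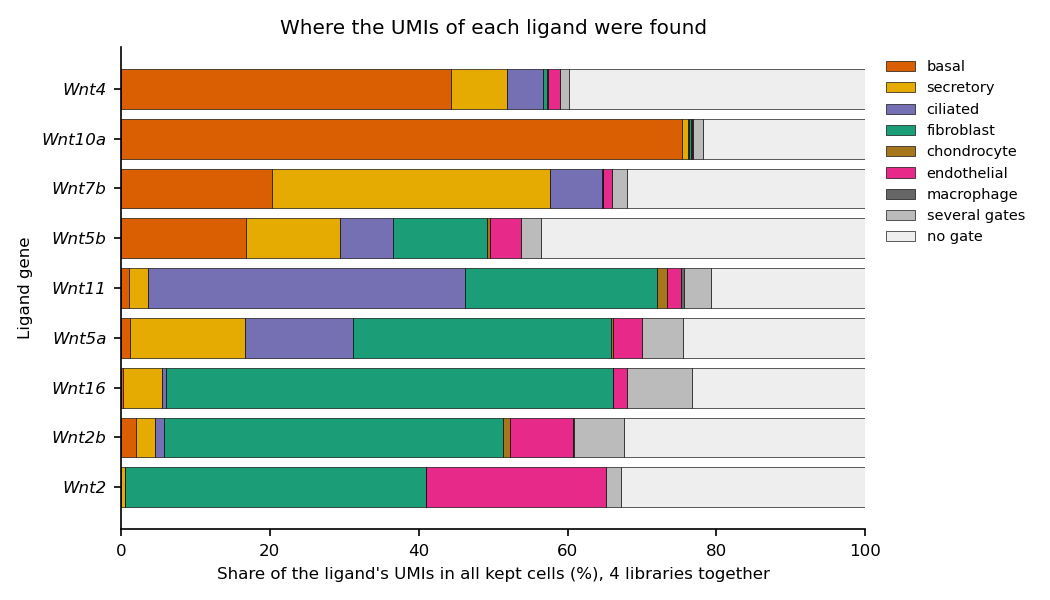
Share of each ligand's UMIs (percent, 4 libraries together) found in cells of each gate, in cells passing several gates and in cells passing none. Wnt10a lies almost only in basal and ungated cells, whereas Wnt11 is split between ciliated cells and fibroblasts.

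Wnt4, a ligand known for roles in kidney, gonad and mammary development, was at nearly the same level in basal cells of all 4 libraries. The basal gate gave 375, 351, 373 and 308 CPM, from 13958, 6437, 7950 and 3303 UMIs. The knockout ventral library was the lowest and the 3 others were close together. The ratio of dorsal to ventral was 1.07 (1.04 to 1.10) in controls and 1.21 (1.16 to 1.26) in knockouts, and that of knockout to control was 0.994 (0.967 to 1.02) dorsally and 0.878 (0.842 to 0.916) ventrally. Most basal cells held Wnt4 RNA. With every cell thinned to 5000 UMIs, 81.0%, 79.5%, 81.4% and 75.0% of basal cells had a Wnt4 UMI (97.2%, 98.7%, 98.5% and 97.2% without thinning). The same share was 2.51%, 2.93%, 1.61% and 1.26% in fibroblasts and 2.26%, 0.613%, 0% and 0% in macrophages, which should lack the gene and set the background of free RNA. For the values of 0 the exact Clopper-Pearson upper limits were 2.78% and 2.56%.

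Hillock cells, a squamous-like epithelial type gated by Krt13, were near the basal level of Wnt4 in the libraries with enough of them, at 333 in the control dorsal and 380 in the knockout dorsal library. Ciliated cells held less, at 76.4, 103, 81.5 and 101 CPM, higher ventrally in both genotypes. Submucosal gland cells (marker Dmbt1), present ventrally, had 5.35 and 6.32.

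Secretory cells differed in Wnt4 between the regions, and not in the same direction in both genotypes. They had 24.1, 45.4, 22 and 18.1 CPM, so the control ventral library stood above the 3 others. The ratio of knockout to control was 0.913 (0.854 to 0.975) dorsally and 0.398 (0.351 to 0.451) ventrally. A ratio is called different here when it is at least 2-fold with an interval that leaves out 1, and the ventral ratio was the only 1 called for Wnt4 in this gate. By that rule 4.40% of all measured genes were called lower in that comparison. The gate threshold mattered for it, since with any Scgb1a1 UMI as the gate the ratio was 0.741 (0.721 to 0.763) and no longer called.

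Wnt10a, a ligand known from hair, tooth and skin development, was found almost only in basal cells. It was at 27.6, 22.1, 20.8 and 21.9 CPM in the basal gate, from 1027, 405, 443 and 235 UMIs. The control dorsal library was the highest and the others lay between 20.8 and 22.1. Its ratio of dorsal to ventral was 1.25 (1.11 to 1.41) in controls and 0.948 (0.807 to 1.12) in knockouts, and that of knockout to control was 0.753 (0.672 to 0.842) dorsally and 0.993 (0.842 to 1.17) ventrally. None of these was called. Hillock cells, which can also be counted as basal, had 16.6 and 17.9 in the dorsal libraries. Of the 7 gates, none but the basal one exceeded 0.434.

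Wnt7b, known from lung epithelium where it acts on the neighbouring mesenchyme, was higher dorsally than ventrally in basal and secretory cells. The basal gate had 46.8, 23.7, 29.6 and 18.4 CPM and the secretory gate, where it was the ligand with most UMIs, had 33.4, 17.6, 20.6 and 14.3. In both gates the control dorsal library was highest and the knockout ventral library lowest. The ratio of dorsal to ventral in controls was 1.98 (1.78 to 2.20) in basal and 1.89 (1.70 to 2.11) in secretory cells, just inside the 2-fold limit. In knockouts it was 1.61 (1.37 to 1.90) and 1.44 (1.26 to 1.64). Knockout to control was 0.632 (0.576 to 0.693) and 0.616 (0.578 to 0.657) dorsally and 0.777 (0.653 to 0.922) and 0.813 (0.693 to 0.951) ventrally, so all 4 intervals lay below 1 without being called. Ciliated cells, at 29.0, 23.9, 19.8 and 22.6, were more even. Dorsal hillock cells held 66.7 and 64.2, the highest Wnt7b level of any gate, and fibroblasts at most 0.369.

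Over all kept cells Wnt7b was called higher dorsally, by 3.33-fold (3.17 to 3.49) in the control pair, against 2.43-fold (2.26 to 2.61) in the knockout pair. That rule called 2.28% and 2.44% of genes higher. The ratio over all cells was larger than within any gate above. The dorsal libraries held more basal, secretory and hillock cells (1932, 2564 and 366 in the control dorsal against 774, 503 and 10 in the control ventral library). As shares of kept cells these were 15.4%, 20.4% and 2.92% against 8.27%, 5.37% and 0.107%. In knockouts the shares were 13.7%, 17.8% and 1.09% dorsally against 7.17%, 4.46% and 0.0153% ventrally. The part of these shares in the ratios over all cells was not tested.

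Wnt5b was the ligand of the basal gate with the clearest difference between genotypes. It is close in sequence to Wnt5a and less well understood. Basal cells had 23.4, 34.9, 8.82 and 21.0 CPM, from 870, 641, 188 and 225 UMIs. Each knockout library was below the control of its region, and each dorsal library below the ventral one of its genotype. Knockout to control was 0.377 (0.320 to 0.442) dorsally, which is called, where 5.13% of genes were called lower, and 0.601 (0.514 to 0.701) ventrally. Dorsal to ventral was 0.670 (0.604 to 0.743) in controls and 0.420 (0.344 to 0.512) in knockouts, the latter called, where 10.3% of genes were. The dorsal ratio of knockout to control ran from 0.335 to 0.418 over 10 alternative settings and was called in each.

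The secretory, ciliated and fibroblast gates also had Wnt5b lower in each knockout than in its control, but ciliated cells had more of it dorsally than ventrally. Secretory cells had 7.56, 10.3, 4.59 and 6.58, with knockout to control at 0.607 (0.529 to 0.695) dorsally and 0.636 (0.507 to 0.795) ventrally. Ciliated cells had 23.7, 19.4, 16.8 and 12.1, with 0.708 (0.519 to 0.949) and 0.625 (0.468 to 0.825). Fibroblasts, which the Cre does not target, had 19.7, 29.8, 11.5 and 24.5, with 0.584 (0.477 to 0.711) and 0.824 (0.712 to 0.953). All 8 intervals of these gates and the basal gate lay below 1. Whether the basal ratios differ from those of the other gates was not tested.

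Of the 6 members measured in basal cells in the comparison of dorsal with ventral controls, 3 were above 1 and 1, Wnt5a, was called lower, against 11.3% of genes called lower and 4.08% higher. Wnt5a was scarce there, at 0.188, 1.20, 0.329 and 1.87 CPM from 7, 22, 7 and 20 UMIs, and was 16.9 to 30.6 in fibroblasts. In knockouts 2 of 6 were called lower, Wnt5a and Wnt5b. For knockout against control 1 of 5 was called lower dorsally and 0 of 6 ventrally, where 1.99% of genes were called lower and 1.66% higher. Median log2 ratios of the members were -0.08, -0.30, -0.41 and -0.10 for dorsal to ventral in controls and knockouts and for knockout to control dorsally and ventrally. Those of all genes were -0.08, -0.15, -0.06 and -0.01. A list of 6 is short, and nothing particular to the ligands is read from these counts.

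**Figure D3:**
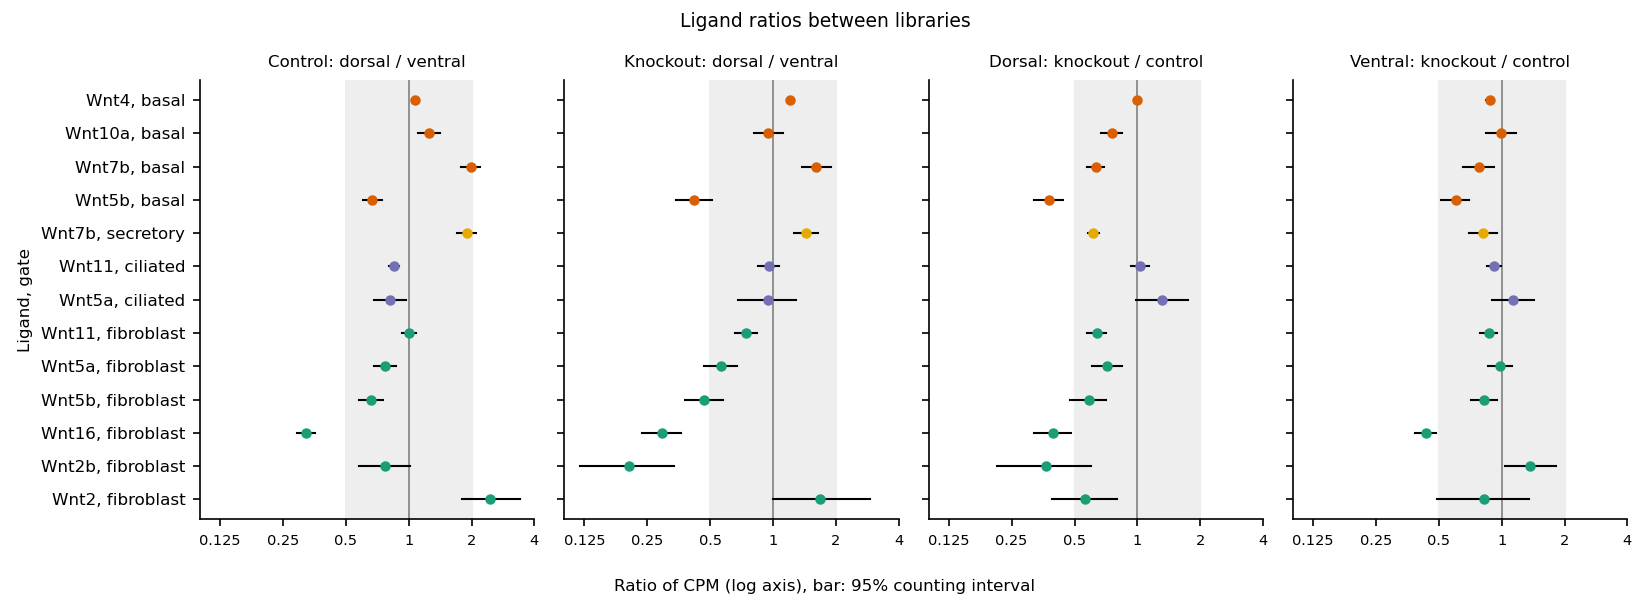
Ratio of CPM between libraries (log axis, bars are 95% counting intervals) for 13 pairs of ligand and gate (points coloured by gate) in 4 comparisons, with the grey band from 0.5 to 2 marking less than 2-fold. Wnt16 in fibroblasts lies outside the band in all 4 panels, and Wnt4 in basal cells stays close to 1.

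Ciliated cells held Wnt11 at nearly the same level everywhere. Wnt11, known for guiding cell movement in embryos, was at 147, 173, 152 and 159 CPM in the ciliated gate, from 3052, 1874, 453 and 894 UMIs. The 4 ratios were 0.851 (0.803 to 0.901), 0.954 (0.850 to 1.07), 1.03 (0.933 to 1.14) and 0.921 (0.849 to 0.997). Thinned to 5000 UMIs, 52.8%, 56.3%, 45.0% and 48.6% of ciliated cells had a Wnt11 UMI, against 0.789%, 0.907%, 0.972% and 1.71% of basal cells. Wnt5a was in the same gate at 15.3, 18.8, 20.1 and 21.4, and none of its ratios was called. The ciliated gates held 1174, 512, 106 and 187 cells, so the knockout dorsal values rest on the fewest cells. No member was called in ciliated cells in any of the 4 comparisons, in which the rule called 1.99%, 1.99%, 2.04% and 2.0% of genes higher and 4.96%, 7.11%, 2.54% and 2.21% lower.

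Fibroblasts held Wnt11, Wnt5a, Wnt5b, Wnt16, Wnt2b and Wnt2. Wnt4 was counted there as well, with 373 UMIs and 5.77 CPM over the 4 libraries. Wnt11 had most UMIs in the gate, at 65.0, 64.9, 41.6 and 56.1 CPM. Both control libraries were alike and the knockout dorsal library was lowest. Dorsal to ventral was 1.00 (0.929 to 1.08) in controls and 0.742 (0.658 to 0.837) in knockouts, and knockout to control was 0.640 (0.576 to 0.710) dorsally and 0.865 (0.785 to 0.952) ventrally. Wnt5a, a ligand of the mesenchyme in many organs, was at 23.6, 30.6, 16.9 and 30.1. Its dorsal to ventral ratio was 0.770 (0.682 to 0.868) in controls and 0.562 (0.469 to 0.672) in knockouts, with the knockout dorsal library again lowest. Knockout to control was 0.717 (0.605 to 0.847) dorsally and 0.982 (0.858 to 1.12) ventrally.

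The fibroblast gate did not catch the same share of fibroblasts in controls and knockouts, and its marker Col1a2 was itself lower in the knockouts. Cells with at least 2 UMIs of both Pi16 and Dcn, which mark adventitial fibroblasts and fibroblasts at large, numbered 1719, 1406, 1539 and 1402. They had 1606, 1343, 605 and 530 CPM of Col1a2, and 81.4%, 67.7%, 46.7% and 33.1% of them passed the gate. Each fibroblast value was therefore computed again with Dcn and with Pdgfra in place of Col1a2, gates chosen after these values were seen. Of the 8 ligand ratios called in fibroblasts, 8 stayed called with Pdgfra and 4 with Dcn. Of the 5 called in their Col23a1 part, described below, 4 stayed called with Pdgfra and 1 with Dcn. With Pdgfra the knockout dorsal to ventral ratio of Wnt11 was 0.938 (0.843 to 1.04) and knockout to control was 0.758 (0.682 to 0.843) dorsally.

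Wnt16, known from bone and joint tissue, was the only fibroblast ligand called in all 4 comparisons. Wnt2b was further from 1 for dorsal to ventral in knockouts (0.205) and for dorsal knockout to control (0.366). Wnt16 was at 25.4, 78.9, 10.0 and 34.2 CPM, from 482, 1814, 122 and 359 UMIs. Each ventral library was above the dorsal one of its genotype, and each control above the knockout of its region. Dorsal to ventral was 0.322 (0.291 to 0.356) in controls and 0.293 (0.236 to 0.361) in knockouts. Knockout to control was 0.394 (0.320 to 0.481) dorsally and 0.433 (0.386 to 0.485) ventrally. All 4 are called, where the rule called 8.90%, 14.1%, 9.02% and 2.56% of genes lower. With the Pdgfra gate the levels were 33.3, 99.2, 8.21 and 39.7 and the ratios 0.335 (0.30 to 0.374), 0.207 (0.169 to 0.252), 0.247 (0.200 to 0.303) and 0.40 (0.363 to 0.440).

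Wnt16 was found in fibroblasts with little Dcn. A Wnt16 UMI was found in 151, 262, 49 and 96 cells of the Col1a2 gate. Those cells had 2555, 716, 3622 and 755 CPM of the proteoglycan gene Dcn, against 13976, 16763, 14440 and 16524 in the cells without one. They had more Pdgfra (337, 392, 343 and 376 against 236, 242, 305 and 252), so they kept this fibroblast marker. Other fibroblast markers were lower in them. Lum was at 542, 58.1, 329 and 14.9 against 1570, 594, 1064 and 438. Col1a2 was at 1500, 1207, 865 and 815 against 1729, 1833, 936 and 939. The collagen gene Col23a1 was at 1209, 2228, 618 and 1749 in them against 277, 498, 180 and 431. Hhip, an antagonist of hedgehog signals, was at 916, 995, 517 and 1091 against 114, 105, 97.6 and 112. Notum, the enzyme that removes the lipid from Wnt proteins, was at 134, 266, 67.5 and 277 against 23.5, 24.3, 22.8 and 33.2. These genes were chosen after their values were seen and are a description. A gate on high Dcn left only 87, 18, 33 and 11 Wnt16 UMIs. There the dorsal to ventral ratio turned to 5.52 (3.30 to 9.76) in controls and 2.39 (1.18 to 5.24) in knockouts. Why it turned was not tested.

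The Col23a1 part of the fibroblast gate showed the same gene from another side. Fibroblasts with Col23a1 and without Pi16, Dpp4, Lrat, Bmp5, Prg4 or Kera, called ventral-type here, had 187, 285, 84.9 and 130 CPM of Wnt16. Those with Pi16 or Dpp4 alone, called adventitial-type, had 2.02, 1.06, 8.19 and 1.41. Dorsal knockout to control was called higher in them, at 4.06 (1.56 to 11.8) from 15 and 7 UMIs, where 2.88% of genes were, opposite to the whole gate. With the Pdgfra gate it was 2.17 (0.875 to 6.12) from 19 and 7 UMIs and not called. The perichondrial-like part (Prg4 or Kera alone) and the dorsal-type part (Lrat or Bmp5 alone) had 0 UMIs in every library. All parts but the ventral-type one leave out cells with a Col23a1 UMI. Of the cells with Wnt16, 93.4%, 98.9%, 81.6% and 96.9% had one, so low values in those parts follow largely from the gating. A Pi16 UMI was in 72.2%, 58.4%, 67.3% and 62.5% of cells with Wnt16, and the ventral-type part leaves these out. Most cells of the gate were in none of these parts. Ventral-type cells made up 5.85%, 14.7%, 4.61% and 12.3% of the gate. Within them dorsal to ventral was 0.657 (0.552 to 0.778) in controls, nearer to 1 than in the whole gate. Both the share of such cells and the level within them were lower dorsally. Knockout to control within them was 0.458 (0.384 to 0.543) ventrally, where 2.39% of genes were called lower. It was 0.526 with any marker UMI as the gate, 0.589 with the threshold at 5%, and 0.535 as a mean over cells, none of which is called. The knockout dorsal part held 47 cells and 35 Wnt16 UMIs, too few cells for a comparison across genes, and its Wnt16 level was 0.454 (0.305 to 0.657) of the control.

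**Figure D4:**
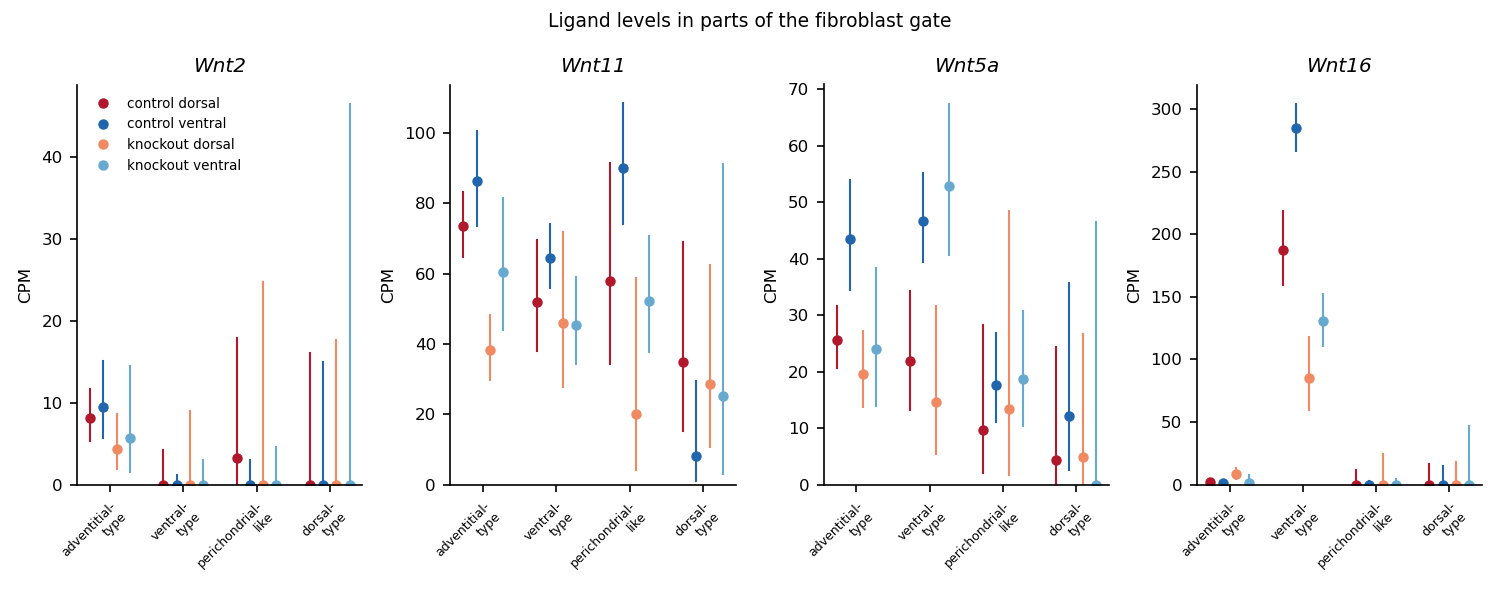
Level of Wnt2, Wnt11, Wnt5a and Wnt16 (CPM, bars are 95% counting intervals) in 4 parts of the fibroblast gate, with 1 point per library. Wnt16 is high in the ventral-type part in all 4 libraries and low in the others, which leave out cells with a Col23a1 UMI. Wnt11 is found in each part.

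Wnt11 and Wnt5a were spread over these parts. Adventitial-type cells had 73.5, 86.2, 38.2 and 60.6 CPM of Wnt11, perichondrial-like cells 57.9, 90.1, 20.1 and 52.2, and ventral-type cells 52.0, 64.5, 46.1 and 45.4. The knockout dorsal adventitial-type value was 0.520 (0.393 to 0.680) of the control. Wnt5a was at 25.7, 43.4, 19.7 and 23.9 in adventitial-type and at 22, 46.7, 14.6 and 52.8 in ventral-type cells. The control dorsal to ventral ratio of Wnt5a in ventral-type cells was 0.470 (0.275 to 0.761), called where 3.49% of genes were called lower. With the Pdgfra gate it was 0.696 (0.401 to 1.14) from 18 and 145 UMIs and not called. Wnt4 was at 15.6 CPM in ventral-type and 2.03 in adventitial-type cells over the 4 libraries, from 86 and 16 UMIs. Its ventral knockout to control ratio in ventral-type cells was called at 0.279, where 2.39% of genes were called lower. With Pdgfra this Wnt4 ratio was 0.420 (0.232 to 0.720), and at the 20% threshold it was not called. Wnt5a and Wnt16 were often in the same cell, and a Wnt5a UMI was found in 35.1%, 47.7%, 28.6% and 56.3% of cells with Wnt16, against 16.7%, 26.1%, 14.8% and 22.6% of all cells of the gate. Cells with Wnt16 had medians of 9236, 14268.5, 10990 and 13026.5 UMIs and those without it 9061, 11832, 11350 and 10198, and the part of this depth in the shares was not tested.

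Wnt5b in fibroblasts was lower dorsally. Its levels are given above, and dorsal to ventral was 0.660 (0.580 to 0.750) in controls and 0.468 (0.378 to 0.577) in knockouts, the latter called. It was not called with the Dcn gate (0.556), with the gate threshold at 20% (0.505) or with size factors (0.524). Ventral-type cells had 52.0, 46.4, 2.43 and 41.3 CPM, the third from a single UMI. With Pdgfra as the gate marker that part held 0 Wnt5b UMIs in the knockout dorsal library and 33 in the control dorsal library. The ratio of knockout to control there has an upper limit of 0.189.

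Wnt2b, which acts through β-catenin in eye, lung and gut development, was low in fibroblasts. It was at 4.48, 5.83, 1.64 and 7.99 CPM, from 85, 134, 20 and 84 UMIs. The knockout dorsal library stood below the 3 others. Dorsal to ventral was 0.769 (0.579 to 1.02) in controls and 0.205 (0.119 to 0.337) in knockouts, and knockout to control was 0.366 (0.213 to 0.601) dorsally and 1.37 (1.03 to 1.82) ventrally. With Dcn as the marker the knockout to control ratios were 0.435 (0.288 to 0.648) and 1.33 (1.03 to 1.72), and with Pdgfra 0.408 (0.251 to 0.649) and 1.5 (1.16 to 1.94). So the regions stood on opposite sides of 1 under each of the 3 gates, and the difference between them was not tested. In adventitial-type cells it was at 6.34, 7.41, 0.546 and 14.1, the knockout dorsal value from 1 UMI. That value was called lower against both the control dorsal and the knockout ventral part, where 7.41% and 7.48% of genes were. Outside fibroblasts the Pecam1 gate held most, with 60 UMIs and 2.38 CPM over the 4 libraries. There its cells without a Prox1 UMI in the knockout ventral library were at 7.21. The Pecam1 gate also held Col1a2 RNA, given below, and the part of fibroblast RNA in this level was not tested.

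Wnt2, known together with Wnt2b for the specification of the lung and trachea, was found in fibroblasts and in lymphatic endothelium. Fibroblasts had 6.54, 2.65, 3.69 and 2.19 CPM, from 124, 61, 45 and 23 UMIs, higher dorsally in both genotypes. Dorsal to ventral was 2.46 (1.80 to 3.41) in controls, which is called where 2.19% of genes were called higher, and 1.69 (0.999 to 2.92) in knockouts. Knockout to control was 0.564 (0.392 to 0.80) dorsally and 0.825 (0.487 to 1.35) ventrally in this gate. That dorsal value depends on the marker. Cells outside every gate held 40, 22, 110 and 33 Wnt2 UMIs, of which 37, 9, 110 and 19 lay in cells that pass a Dcn gate. With Dcn as the marker the levels were 9.39, 3.57, 7.67 and 2.14, the dorsal to ventral ratios 2.63 (1.97 to 3.53) and 3.58 (2.46 to 5.36), and knockout to control 0.817 (0.650 to 1.03) dorsally and 0.599 (0.386 to 0.915) ventrally. With Pdgfra they were 2.90 (1.80 to 4.78), 1.65 (1.10 to 2.50), 1.08 (0.743 to 1.58) and 1.90 (1.14 to 3.20). Dorsal was thus above ventral in the whole gate under all 3 markers, while knockout to control changed side. Within adventitial-type cells of the Col1a2 gate, given below, dorsal was not above ventral.

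**Figure D5:**
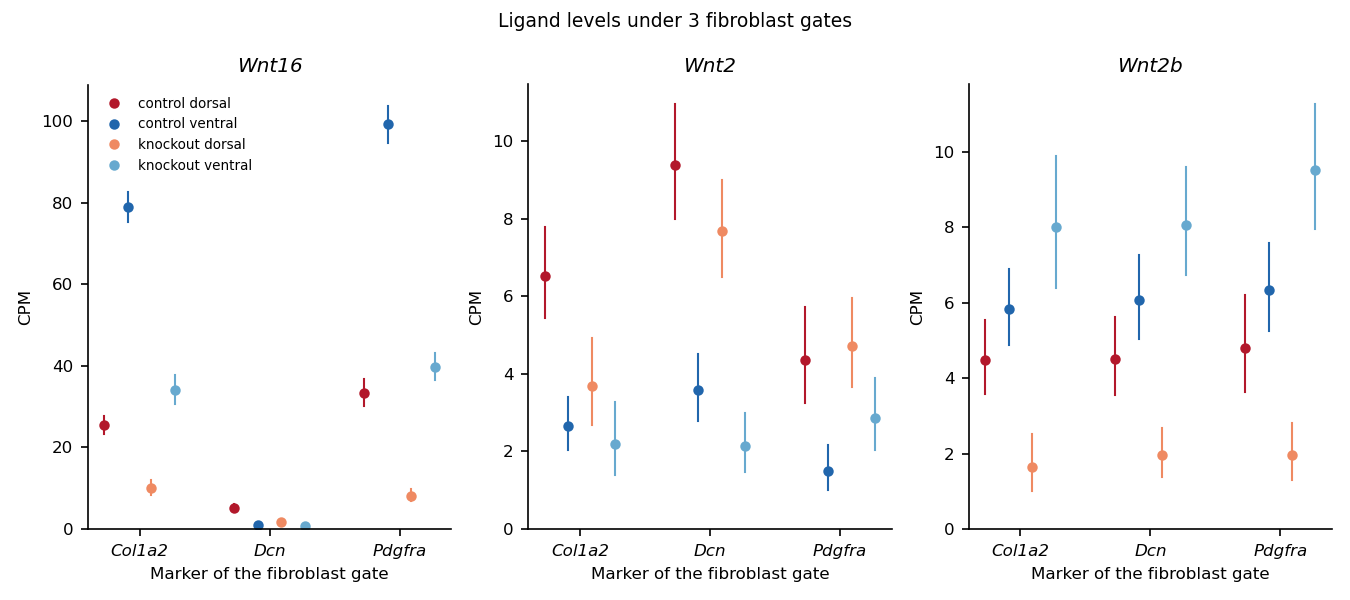
Level of Wnt16, Wnt2 and Wnt2b (CPM, bars are 95% counting intervals) in fibroblast gates set by Col1a2, Dcn or Pdgfra, with 1 point per library. Wnt16 nearly vanishes from the Dcn gate, and the knockout dorsal library is lowest in Wnt2b under each marker.

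Wnt2 and Wnt16 were rarely found in the same fibroblast. Both had a UMI in 1, 0, 0 and 1 cells, out of 60, 23, 23 and 10 cells with Wnt2. The product of their shares would give 4.49, 3.27, 1.10 and 1.00 cells, so the counts lay below it in the control libraries, whereas the knockout numbers are too small to show a difference. Adventitial-type cells held 8.07, 9.52, 4.37 and 5.63 CPM of Wnt2, and ventral-type cells held no Wnt2 UMI in any library. Within adventitial-type cells dorsal was thus not above ventral, from 58 UMIs over the 4 libraries. With Pdgfra as the marker that part had 3.43, 3.13, 0.392 and 4.89, from 7, 5, 1 and 7 UMIs. Adventitial-type cells made up 19.7%, 9.12%, 16.4% and 8.45% of the Col1a2 gate, and the part of this in its Wnt2 ratios was not tested. Wnt11 was found in 55.0%, 78.3%, 73.9% and 80.0% of the cells with Wnt2, which is 33, 18, 17 and 8 cells. It was common in the whole gate, in 756 of 2018, 779 of 1842, 300 of 1020 and 355 of 959 cells. The product of the shares of Wnt2 and Wnt11 would give 22.5, 9.73, 6.76 and 3.70 cells, and the part of depth in these counts was not tested.

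Low counts of the same mesenchymal ligands were found in secretory cells. Wnt5a was at 4.12, 2.02, 3.35 and 2.46 CPM and Wnt16 at 1.31, 1.98, 0.481 and 1.46, against at most 0.619 of either in macrophages. Of their ratios, dorsal to ventral in controls was 2.04 (1.49 to 2.84) for Wnt5a, where 2.12% of genes were called higher. With any Scgb1a1 UMI as the gate it turned to 0.705. Wnt16 was called lower in the knockout dorsal library, at 0.329 (0.190 to 0.572) of the knockout ventral level and 0.369 (0.240 to 0.550) of the control dorsal level, where 4.91% and 5.16% of genes were called lower. Wnt11 was at 1.85, 3.04, 1.19 and 2.51, and its knockout dorsal to ventral ratio was called too, at 0.473 (0.325 to 0.696). Over the 4 libraries Wnt11 was at 1.84 CPM in secretory cells against 8.16 in macrophages, so unlike Wnt5a and Wnt16 it was not above the macrophage level. Col1a2 and the other fibroblast markers were not examined cell by cell in this gate, so a part of free RNA or of mixed cells in these values was not tested.

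Gland cells and chondrocytes held few ligand UMIs. Wnt5b led in the gland gate, at 17.2 CPM in the control ventral and 12.4 in the knockout ventral library, the 2 libraries with such cells. Knockout to control was called lower there for Wnt11 (10 against 34 UMIs) and higher for Wnt5a (15 against 7 UMIs), where 3.70% of genes were called lower and 3.12% higher. In chondrocytes Wnt11 was at 6.07, 20.4, 13.8 and 12.6, the third from 19 cells. Its control dorsal to ventral ratio was 0.297 (0.158 to 0.518), called where 3.76% of genes were called lower. Wnt4 was called higher in that comparison (3.90% of genes were) from only 20 and 10 UMIs, and with the gate threshold at 20% the libraries held only 0 and 1.

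Lymphatic endothelial cells, gated by Prox1, held Wnt2 at 11.9, 15.1, 3.17 and 15 CPM, from 9, 60, 2 and 49 UMIs. The ventral libraries were alike, with knockout to control at 0.995 (0.668 to 1.48), and the dorsal ones rest on 53 and 31 cells. The Pecam1 gate needs care, since it mixed such cells with others. Within it 10, 66, 2 and 70 of 11, 66, 3 and 71 Wnt2 UMIs were in cells with a Prox1 UMI. The cells without one had 342, 453, 238 and 183 CPM of the epithelial gene Epcam and only 33.4, 3.4, 9.28 and 8.21 of the endothelial gene Cdh5. Wnt4 in that gate was therefore not read as endothelial. Its knockout dorsal to ventral ratio was called higher, where 1.92% of genes were. Those of Wnt2 for knockout dorsal to ventral and dorsal knockout to control were called lower (7.89% and 7.83% of genes), from 3 UMIs in the knockout dorsal library. In all 10 ligand ratios of the gate were called. The other 7 were Wnt7b dorsal to ventral in controls (2.32, where 5.91% of genes were called higher) and knockouts (3.81), Wnt5b in knockouts (0.464) and Wnt16 in controls (0 against 41 UMIs, where 6.31% were called lower). Ventral knockout to control was called for Wnt2b (4.13) and Wnt11 (2.08), where 7.62% of genes were called higher, and for Wnt7b (0.468), where 6.42% were called lower. The Pecam1 gate also held the fibroblast marker Col1a2, at 28.2, 21.6, 94.4 and 86.5 CPM. That is 1.65%, 1.25%, 10.1% and 9.37% of its level in the fibroblast gate. The part of fibroblast RNA in these ratios was not tested. A gate by Cdh5, also chosen after the values were seen, had 34, 163, 17 and 138 cells with 9, 46, 0 and 36 Wnt2 UMIs and 0, 5, 0 and 14 Wnt4 UMIs. Knockout to control of Wnt2 was 0.874 (0.549 to 1.38) ventrally there.

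Over the 7 members measured in fibroblasts, 1 was called higher and 1 lower for dorsal to ventral in controls, Wnt2 and Wnt16. All genes were called higher in 2.19% and lower in 8.90%. In knockouts 3 were called lower, Wnt5b, Wnt16 and Wnt2b, against 14.1% of genes. For knockout to control 2 were called lower dorsally, Wnt16 and Wnt2b, against 9.02% of genes, and 1 ventrally, Wnt16, against 2.56%. Median log2 ratios of the members were -0.38, -0.83, -0.77 and -0.26, against -0.11, -0.25, -0.14 and 0.03 for all genes. Dorsal knockout to control was below 1 for 7 of 7 members, while 40.1% of all genes were above 1. With the Pdgfra gate it was below 1 for 6 of 7.

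The genes that make, receive and block Wnt signals varied in their own way. Porcn was at 369, 43.6, 383 and 52.4 CPM in basal cells. It was 8.47-fold (7.89 to 9.11) higher dorsally in controls, where 4.08% of genes were called higher. The lipid-adding enzyme thus differed by region far more than Wnt4 did in the same cells. Wls, at 381, 415, 303 and 446, did not differ 2-fold. Of 10 Frizzled receptor genes in basal cells, 0 were called higher and 1 lower for dorsal to ventral in controls. Of all genes 4.08% were called higher and 11.3% lower there. In dorsal knockout to control 0 were called, where 5.49% of genes were called higher and 5.13% lower. The most counted were Fzd5 (19.9, 28.4, 13.8 and 21.8) and Fzd8 (13.2, 22.5, 14.3 and 22).

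In fibroblasts 5 of 10 Frizzled receptor genes were called lower in the dorsal knockout to control comparison, where 9.02% of genes were. All 10 were below 1, with a median log2 ratio of -0.74 against -0.14 for all genes. With the Pdgfra gate 10 were below 1 and 4 called lower, and with the Dcn gate 9 and 2. Fzd2 was at 78.5, 68.9, 61.6 and 70.8 and Fzd1 at 59.2, 67.8, 45.6 and 59.7, neither of them called. Among 10 secreted antagonists, 9 were measured in dorsal to ventral controls, with 1 called higher and 4 lower, against 2.19% and 8.90% of genes. With the Pdgfra gate 8 were measured, 1 called higher and 2 lower, and with the Dcn gate the counts were the same. Their median log2 ratio was -0.70 with Col1a2, -0.19 with Pdgfra and 0.21 with Dcn, so it depended on the marker. Sfrp2, which binds Wnt proteins outside the cell, was at 51.3, 688, 29.3 and 339, and Dkk3, of the Dickkopf family, at 352, 260.2, 198 and 281. In the Col1a2 gate Sfrp2 was thus higher ventrally in both genotypes, as Wnt16 was there. Its levels with Dcn or Pdgfra as the marker are not given here.

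For each member the genes with the most similar levels were taken over 27 points of gate and library with at least 50 cells. The measure was Pearson's r of log2 levels, and points of a library share its cells, depth and free RNA, so r is a description. Wnt4 was most like Fkbp4, Itgb4 and Tspan15 (0.96 each), Wnt10a like Sprr2k (0.99), Bnc1 and S1pr5 (0.98 each), and Wnt7b like Prkab1, Krtcap3 and Pls1 (0.98 each). Wnt11 was most like Dhrs7 (0.96), Scrn1 and Prickle2 (0.94 each). Wnt5a was most like Ncald (0.93), Mettl24 (0.92) and Ccn3 (0.90), and Wnt5b like Lrig1 (0.96), Osr2 (0.93) and Dlg5 (0.92). Wnt16 was most like Gask1a, Cpz (0.96 each) and Gldn (0.95), and Wnt2b like Cacna2d3 (0.96), Galnt17 and Gata6os (0.95 each). Wnt2 was most like Adamts4, Thy1 (0.97 each) and Tfpi2 (0.96). Among the members themselves the closest pair was Wnt4 and Wnt7b (0.89), followed by Wnt2b and Wnt16 (0.83) and by Wnt2 and Wnt2b (0.82).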

How the data were processed

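Single-cell RNA was measured in 4 mouse trachea libraries with a 10x Genomics 5′ kit, per the labels' protocols. The authors deposited raw UMI counts per gene and barcode, which per the submitters' processing notes came from Cell Ranger 10.0.0 and the build GRCm39. The sources used here do not state the annotation or how cells were called. A barcode was kept as a cell if it had 500 or more genes and no more than 15% mitochondrial UMIs (removing 615, 1360, 520 and 930, then 101, 46, 39 and 12). Scrublet (scanpy 1.11.5) then removed 702, 380, 153 and 181 doublets at a fixed 0.4% per 1000 cells, since its automatic threshold marked only 0.223% and 0.523% ventrally.

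A cell passed a gate with at least 2 UMIs of its marker and at least 10% of the 99th percentile of the marker's share. Basal cells also needed a Trp63 UMI, and cells passing several of the 7 gates were left out. Counts were summed per gate and library and divided by all UMIs of the gate. Levels have exact Poisson intervals, shares Clopper-Pearson intervals and ratios conditional binomial intervals (scipy 1.17.1, 95%). A gene counted as measured if either library of a comparison had 10 or more UMIs. List medians used 0.5 UMIs added to each count. The ratio code was tested on simulated data. No test was run, since each group is 1 library without replicate spread. UMIs of 1 cell are not independent samples of a mouse.

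The genes named are all 10 members, the 3 genes most like each member, and up to 2 genes with most UMIs from each pathway list. Other genes were chosen after their values were seen. The members and lists were chosen with earlier results of these data known. Alternatives are given in the closing section. Promoter windows came from RefSeq on GRCm38.p6, which is not the build of the counts, and were used for their letters.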

Additional observations from a re-analysis of the deposited data

Results flagged for a closer look

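In 5 pairs of comparisons a ligand stood on opposite sides of 1, with both counting intervals leaving out 1, and in no pair was the difference between the 2 ratios tested. Wnt2b in the fibroblast gate was at 0.366 (0.213 to 0.601) of the control in the dorsal knockout and at 1.37 (1.03 to 1.82) in the ventral knockout. Wnt4 in the secretory gate was lower dorsally in controls, at 0.532 (0.494 to 0.573) of the ventral level, and higher dorsally in knockouts, at 1.22 (1.08 to 1.38).

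The other 3 pairs lay in the Pecam1 gate, which held Epcam-positive cells beside endothelial ones. It also held RNA of the fibroblast marker Col1a2, with more of it in the knockouts. Wnt2 there was at 0.174 (0.0312 to 0.659) of the control dorsally and 1.59 (1.12 to 2.26) ventrally. The dorsal ratio rests on 3 and 11 UMIs. Wnt4 there was dorsally at 0.687 (0.510 to 0.910) of the ventral level in controls, against 2.38 (1.93 to 2.94) in knockouts. It had knockout to control ratios of 1.76 (1.28 to 2.46) dorsally and 0.507 (0.435 to 0.589) ventrally. In cells of this gate with a Prox1 UMI, Wnt4 was at 7.53, 4.29, 7.55 and 14.2 CPM, and in those without one at 71.4, 72.9, 87.3 and 36.2.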

How the results depend on the processing

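All 40 ligand ratios called in the 7 gates and the ventral-type part were followed, those with under 50 cells in a library included (4 in basal, 5 in secretory, 8 in fibroblast, 5 in ventral-type, 4 in chondrocyte, 10 in Pecam1-gated and 4 in macrophage cells). Those of other parts were not. In macrophages control dorsal to ventral was called for Wnt4 (13.7) and Wnt11 (3.03), where 3.14% of genes were called higher. Dorsal knockout to control was called for Wnt4 (0.0728) and Wnt11 (0.329), where 6.37% were called lower. Wnt4 had 16 UMIs and Wnt11 55 in that gate over the 4 libraries, and 0 of these 4 ratios stayed called at the 20% threshold. Of all 40, between 23 (any marker UMI) and 40 stayed called under each of the 10 planned settings, 25 of 39 at the 20% and 30 at the 5% threshold. All 4 of the basal gate did under each, whereas 1 of 5 in the secretory gate did with any marker UMI. With the fibroblast gate by Pdgfra 12 of 13 did, by Dcn 5 of 13, and with the endothelial gate by Cdh5 1 of 7. These 2 gates and the gate by Cdh5 were chosen after seeing the data. Ratios that turned were Wnt16 in fibroblasts by Dcn (5.52 dorsal to ventral in controls and 2.39 in knockouts) and Wnt4 in the endothelial gate for knockout dorsal to ventral, at 0.616 with the threshold at 20% and 0 by Cdh5. Others were, by Cdh5, Wnt7b for knockout dorsal to ventral (0) and Wnt2b for ventral knockout to control (0.372). With any UMI they were Wnt11 in the endothelial gate for ventral knockout to control (0.767), Wnt5a in secretory cells for control dorsal to ventral (0.705) and Wnt4 in chondrocytes for dorsal knockout to control (0.889). Wnt4 in chondrocytes was also at 0 for the last at 5%, for control dorsal to ventral at 20% and for knockout dorsal to ventral at both. The Dcn gate held few Wnt16 UMIs, as given above. The cause of these turns was not tested.

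Wnt4 in basal cells was not called under any setting. With any marker UMI its control dorsal to ventral ratio was 1.13 and its dorsal knockout to control ratio 0.924. The latter was 1.03 at 20%, 1.06 with size factors and 1.07 without mitochondrial and ribosomal genes, where knockout dorsal to ventral was 1.30, 1.36 and 1.27. Ventral knockout to control was 0.917 at 5%. Wnt11 in fibroblasts had control dorsal to ventral ratios of 0.846 at 20% and 1.08 at 5%. Its dorsal knockout to control ratio was 0.757 with any UMI and 0.758 by Pdgfra. Its knockout dorsal to ventral ratio was 0.961 with any UMI, 0.871 by Dcn, 0.938 by Pdgfra and 0.851 at 5%, and ventral knockout to control was 0.769 at 20%. Wnt7b in secretory cells had control dorsal to ventral ratios of 3.23 with any UMI and 2.13 as a mean over cells, so the 2-fold limit was passed there. Its dorsal knockout to control ratio was 0.543, 0.526 and, with size factors, 0.672, and knockout dorsal to ventral was 2.26 with any UMI.

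Of the 8 other members measured in their highest gate, 1 was called for control dorsal to ventral. The number was 2 with any UMI, with doublets kept, with size factors and with no barcode filter, and 3 at 5%. In the main setting 1.99% to 5.91% of all genes were called higher and 4.96% to 11.3% lower in the basal, ciliated, fibroblast and endothelial gates. For ventral knockout to control the number was 1, and 0 by Dcn. There 1.66% to 7.62% of all genes were called higher and 1.99% to 6.42% lower. The share of basal cells with a Wnt4 UMI was 91.3%, 90.3%, 90.9% and 86.6% at 8000 UMIs, and 97.2%, 98.7%, 98.5% and 97.2% unthinned. Few UMIs limit Wnt2, Wnt2b and each dorsal lymphatic value. No paired analysis was possible because the groups share only 1 replicate number and no test was run.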
